A study of Mus musculus with 7 samples.

Results

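Small nucleolar RNAs (snoRNAs) and small Cajal body RNAs (scaRNAs) were described in the cerebral cortex of P213L and WT mice at postnatal day 7. The rows were chosen by name and by level: the symbol had to start with Snora, Snord or Scarna and a number, and the mean over all 7 libraries had to reach 1 TPM (transcripts per 1000000). Of the 56941 rows in the deposited table, 167 carried such a name, and 44 of these reached the level. They comprised 12 of 42 box H/ACA rows (Snora), 29 of 115 box C/D rows (Snord) and 3 of 10 Cajal body rows (Scarna). Of the others, 98 were listed at 0 in every library and 25 lay between 0 and 1 TPM.

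RNA sequencing compared 3 cortex libraries of mice with the P213L variant of Hnrnph2 (P213L) with 4 libraries of wild-type mice (WT). Hnrnph2 is an X-linked gene for a nuclear RNA-binding protein that acts in splicing. The tissue was used fresh, the labels name no treatment, and total RNA went into a stranded library kit for messenger RNA. Sex, strain, allele construction and the number of animals are not in the labels, which also do not say that each library came from a separate animal. P-values therefore measure the spread between these libraries.

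Box C/D RNAs guide the methyltransferase fibrillarin to riboses of ribosomal RNA, and box H/ACA RNAs guide the pseudouridine synthase dyskerin. Cajal body RNAs carry the same boxes and direct the same reactions on the small nuclear RNAs of the spliceosome. Most are cut out of introns of other genes in mammals, and the mature forms have no poly(A) tail, so a library made from messenger RNA holds only a part of them.

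Printed here are 9 rows that carry the results: abundant rows of the main classes (Snora31 and Snord91a), rows among those with the smallest p-values in either direction, and Snora57, whose WT values spread widest among the abundant H/ACA rows. The sequences are GENCODE vM21 transcripts (build GRCm38, the same as mm10), written 5′ to 3′ on the strand of the RNA as DNA letters. Capitals mark TGATGA, the core of the C box, in the first 20 bases, CTGA, the D box, in the last 20 bases, and ACA in the last 8 bases, where a script found them. Snord91a lies at chr11:74905424-74905516 (plus strand), Snord89 at chr1:39548745-39548854 (minus) and Snord85 at chr4:130749634-130749706 (plus). Snord116l12 lies at chr7:59904755-59904848 (minus), Snord73a at chr3:86138791-86138858 (minus), Snord72 at chr15:5118404-5118484 (plus) and Scarna9 at chr9:15326264-15326333 (minus). Snora31 lies at chr14:75847905-75848034 (plus) and Snora57 at chr19:8888538-8888685 (minus).
Snora31: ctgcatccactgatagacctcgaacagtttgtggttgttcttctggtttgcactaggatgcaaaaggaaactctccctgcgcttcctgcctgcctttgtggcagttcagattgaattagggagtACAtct
Snora57: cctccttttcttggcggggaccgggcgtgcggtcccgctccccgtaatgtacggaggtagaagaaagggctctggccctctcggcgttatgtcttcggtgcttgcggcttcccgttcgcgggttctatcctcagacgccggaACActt
Snord91a: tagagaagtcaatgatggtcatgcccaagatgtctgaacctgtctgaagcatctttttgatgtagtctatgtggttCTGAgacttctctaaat
Snord72: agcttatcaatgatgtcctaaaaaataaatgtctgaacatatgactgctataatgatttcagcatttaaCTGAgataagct
Snord89: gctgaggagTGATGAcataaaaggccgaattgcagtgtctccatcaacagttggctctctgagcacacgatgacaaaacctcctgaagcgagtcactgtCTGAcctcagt
Snord73a: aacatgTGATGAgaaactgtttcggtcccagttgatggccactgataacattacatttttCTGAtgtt
Snord116l12: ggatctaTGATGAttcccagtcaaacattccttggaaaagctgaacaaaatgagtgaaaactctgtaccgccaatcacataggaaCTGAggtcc
Snord85: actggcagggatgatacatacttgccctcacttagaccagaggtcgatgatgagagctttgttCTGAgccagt
Scarna9: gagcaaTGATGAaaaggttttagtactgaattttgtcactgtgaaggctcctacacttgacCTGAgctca

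The boxes followed the class given by the name. All 12 H/ACA rows ended in ACA within the last 8 bases, against 2 of 25 C/D rows with a vM21 snoRNA sequence, and 0 of 3 Cajal body rows did. CTGA stood in the last 20 bases of 24 of the 25 C/D sequences, 3 of 3 Cajal body sequences and 1 of 12 H/ACA sequences. TGATGA stood in the first 20 bases of 13 C/D sequences and of all 3 Cajal body sequences, and of 0 H/ACA sequences. The motifs were searched on the RNA strand only and do not overlap as searched. Over all 1559 vM21 sequences annotated as snoRNA or scaRNA, 21.3% held TGATGA, 34.8% CTGA and 47.5% ACA in the same windows. All 3 Cajal body rows therefore carried the C/D boxes, and the windows were set after the sequences were seen.

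The members were short and thinly covered. Their lengths ran from 64 to 265 bases, with a median of 134.5 for H/ACA rows, 83 for C/D rows and 79 for Cajal body rows. TPM times length fell on multiples of 0.5 of the most frequent low value of a library, called a unit here, within 0.05 unit for 100% of the 294 values of the 42 members with a known length. By this estimate the libraries held 71.2 to 79.4 M units in P213L (M, 1000000) and 57.2 to 72.5 M in WT, and a member had a median of 7.5 units per library. Of the member values, 29.6% were under 5 units, where a few reads set the value.

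WT replicate 3 stood apart from the other libraries. It correlated at 0.943 to 0.949 with the other libraries over all tested genes, whereas the highest correlation of every other library was 0.990 to 0.992. It had the fewest units (57.2 M), it held 0 TPM for 8 of the 44 members, and it was the lowest library for 19 of them. In the other libraries, 0 members were at 0 in the 3 P213L libraries, and 1, 1 and 0 were at 0 in WT replicates 1, 2 and 4. Counts and medians over the members, the class sums and the rows named below with such a value are therefore also given without WT replicate 3. The sum of 6 cortical excitatory neuron markers was 1080 to 1184 TPM in P213L, against 753 TPM in WT replicate 3 and 1169 to 1242 TPM in the other WT libraries. The sum of 4 choroid plexus markers was at most 5.71 TPM in P213L, against 1235 TPM in WT replicate 2 and at most 5.09 TPM in the other WT libraries. Hnrnph2 itself averaged 82.0 ± 5.39 TPM in P213L (SD, n = 3) and 87.0 ± 5.66 TPM in WT (SD, n = 4), and a variant of the protein sequence need not change this level.

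Of 5 tested noncoding RNAs that lack a poly(A) tail or are mostly nuclear, 3 were higher in P213L (unadjusted limma p under 0.05). Of all tested rows, 2.36% were higher at that threshold, and the adjusted p-values of the 3 were 0.827. The small nuclear RNA Rn7sk, part of a complex that holds back the elongation factor P-TEFb, stood at 26.4, 19.4 and 13.8 TPM in P213L, against 9.81, 4.38, 9.38 and 9.93 TPM in WT. The ribosomal RNA row Rn18s-rs5 took 4.12, 2.56 and 3.47% of all TPM in P213L, against 1.62, 1.59, 1.31 and 2.41% in WT. The nuclear long noncoding RNA Malat1 stood at 488.2, 529.4 and 568.7 TPM in P213L, against 385.2, 290.6, 89.9 and 356.5 TPM in WT. All 3 of these rows had P213L values above every WT value, as did 5.94% of all tested rows. The other two overlapped between groups, with log2 fold changes of 0.32 ± 0.33 (SE) for Meg3 and -0.08 ± 0.18 (SE) for Neat1. The median of the 5 rows was 0.97, and 0.63 without WT replicate 3, and the part of RNA capture in the values below was not tested.

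No member passed adjustment over the 17582 rows tested. Among all tested rows, 0% passed an adjusted p of 0.05 (limma, Benjamini-Hochberg), the lowest adjusted p of any row was 0.117, and the lowest of any member was 0.827. At an unadjusted limma p under 0.05, 7 members were higher in P213L (15.9%, against 2.36% of all tested rows) and 0 were lower (against 1.38%). By class the 7 were 1 of 12 H/ACA rows (Snora62), 4 of 29 C/D rows (Snord85, Snord116l12, Snord89, Snord17) and 2 of 3 Cajal body rows (Scarna17, Scarna9). The choice by mean level bears on this count, because Snora62, Snord85, Snord116l12 and Snord17 reached 1 TPM through P213L alone. Of the 38 members with a mean of at least 1 TPM in each group, 3 were higher (7.89%) and 0 lower. The shares of all rows were not limited in this way. Without WT replicate 3, 6 of the 44 members were higher, against 4.70% of all rows, and 2 were lower (Snord91a and Scarna6), against 3.99%. Of the 38 members, 3 were then higher (7.89%) and 2 lower, with 17 positive and a median log2 fold change of -0.11.

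The share of members with a positive fold change was close to that of all genes. The log2 fold change of P213L over WT, on the scale of log2(TPM + 0.5), was positive for 28 of 44 members (63.6%), against 63.4% of all tested rows. With median-of-ratios scaling it was positive for 24 members, against 49.1% of all tested rows. Its median was 0.25 over H/ACA rows, 0.08 over C/D rows and 1.01 over Cajal body rows, against 0.07 over all tested rows. With WT replicate 3 left out, these medians were 0.08, -0.14 and 1.05, against -0.002 over all tested rows, and 22 of 44 members were positive. In 5 members (11.4%) every P213L value exceeded every WT value, against 5.94% of all tested rows, and these were Scarna17, Snord85, Snord89, Snord8 and Snora62. Of the 38 members with a mean of at least 1 TPM in each group, 3 did so (7.89%), since Snord85 and Snora62 averaged under 1 TPM in WT. The share of all tested rows was not limited in this way. Every P213L value was lower than every WT value in 0 members, against 2.75% of all tested rows.

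**Figure D1:**
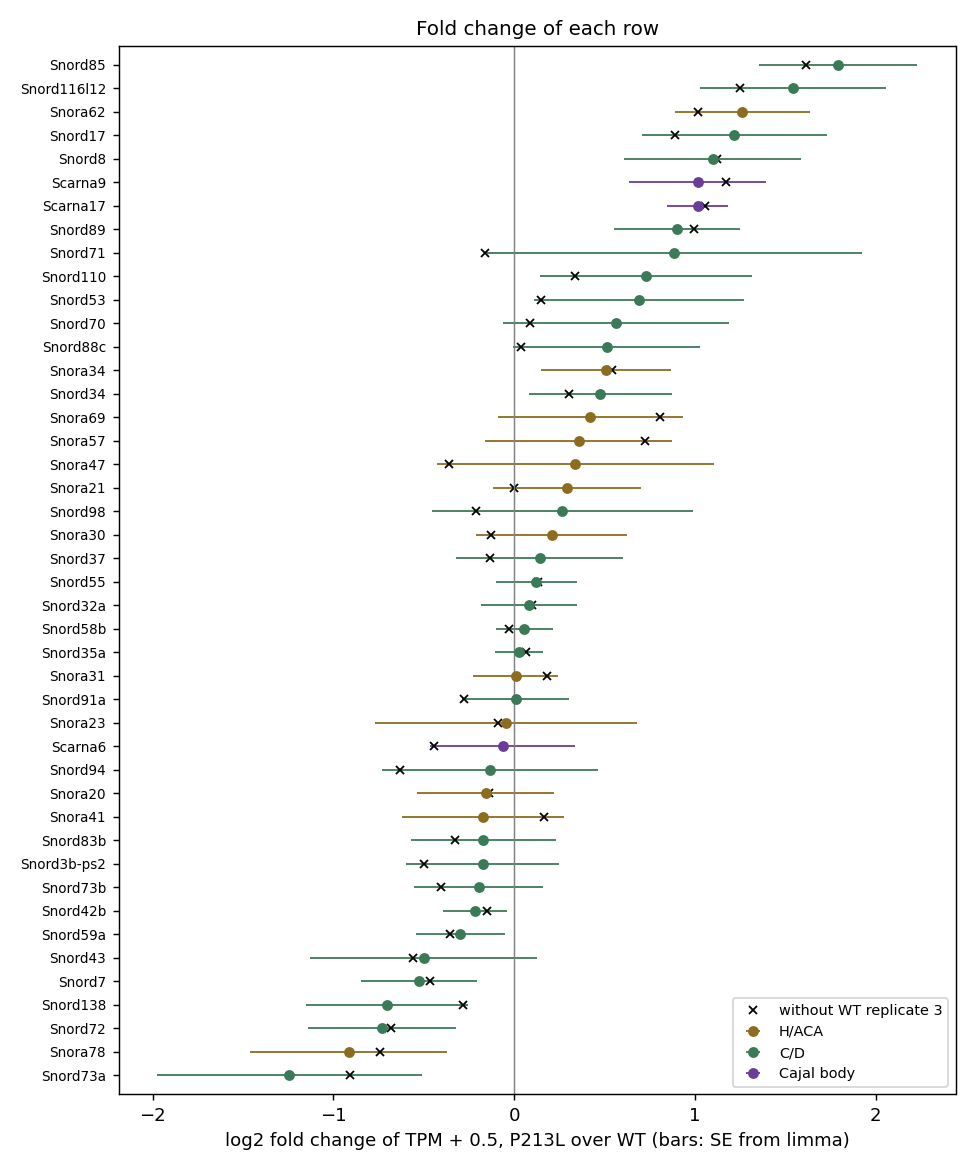
Log2 fold change of TPM + 0.5, P213L over WT, for each of the 44 members, coloured by class, with bars of 1 SE from limma and crosses for the value without WT replicate 3. Fold changes run from -1.24 (Snord73a) to 1.79 (Snord85), and most crosses of the C/D rows lie left of their points.

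**Figure D2:**
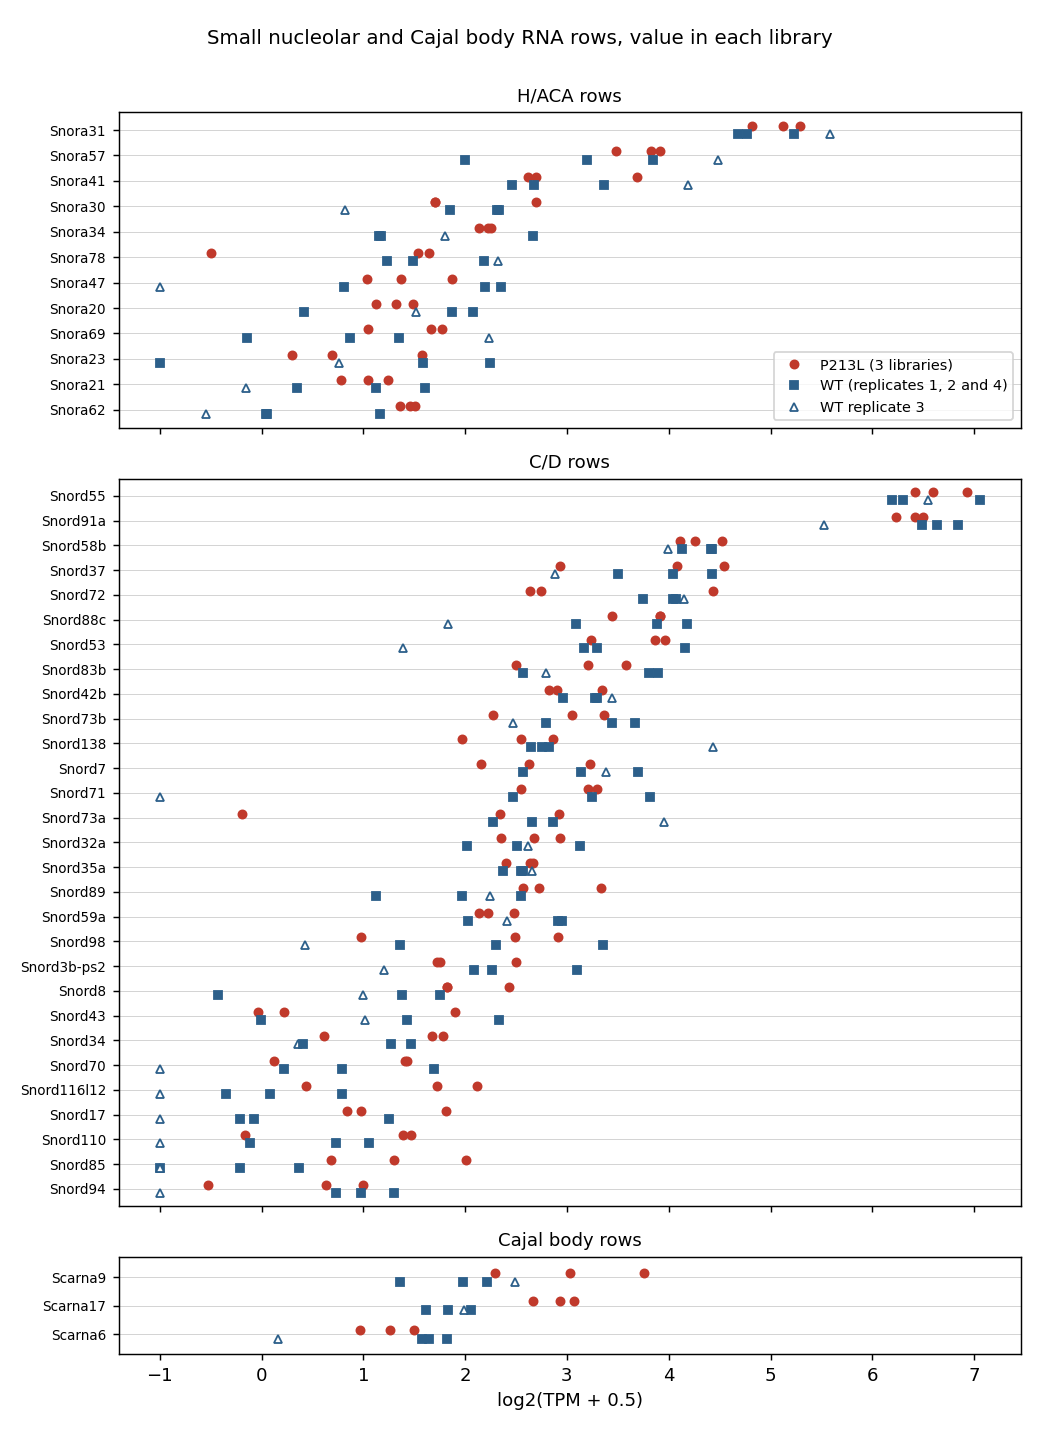
The value of each member in each library as log2(TPM + 0.5), by class and ordered by mean level, with P213L as circles, WT replicates 1, 2 and 4 as squares and WT replicate 3 as open triangles. The open triangles mark the lowest value of 19 rows, and those at -1 are listed at 0 TPM.

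Summed over the members, the H/ACA and C/D classes overlapped between P213L and WT. The H/ACA rows summed to 68.2, 78.6 and 81.2 TPM in P213L, against 73.9, 64.3, 104.0 and 63.1 TPM in WT, a mean of 76.0 ± 6.87 TPM (SD, n = 3) against 76.3 ± 19.1 TPM (SD, n = 4). The C/D rows summed to 326.3, 362.3 and 365.2 TPM in P213L, against 411.3, 347.0, 277.8 and 361.3 TPM in WT, a mean of 351.3 ± 21.7 TPM (SD, n = 3) against 349.3 ± 55.1 TPM (SD, n = 4). WT replicate 3 was the highest library for H/ACA rows and the lowest for C/D rows. Without it the WT mean was 67.1 ± 5.93 TPM for H/ACA rows and 373.2 ± 33.8 TPM for C/D rows (SD, n = 3). The Cajal body rows summed to 11.7, 17.1 and 22.8 TPM in P213L, against 10.3, 9.14, 9.20 and 7.66 TPM in WT. The groups did not overlap in this last sum, which rests on 3 rows, with a mean of 17.2 ± 5.54 TPM in P213L (SD, n = 3) against 9.08 ± 1.09 TPM in WT (SD, n = 4). Without WT replicate 3 the WT mean was 9.04 ± 1.33 TPM (SD, n = 3). In whole tissue, fewer cells of a type and less RNA per cell cannot be told apart.

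**Figure D3:**
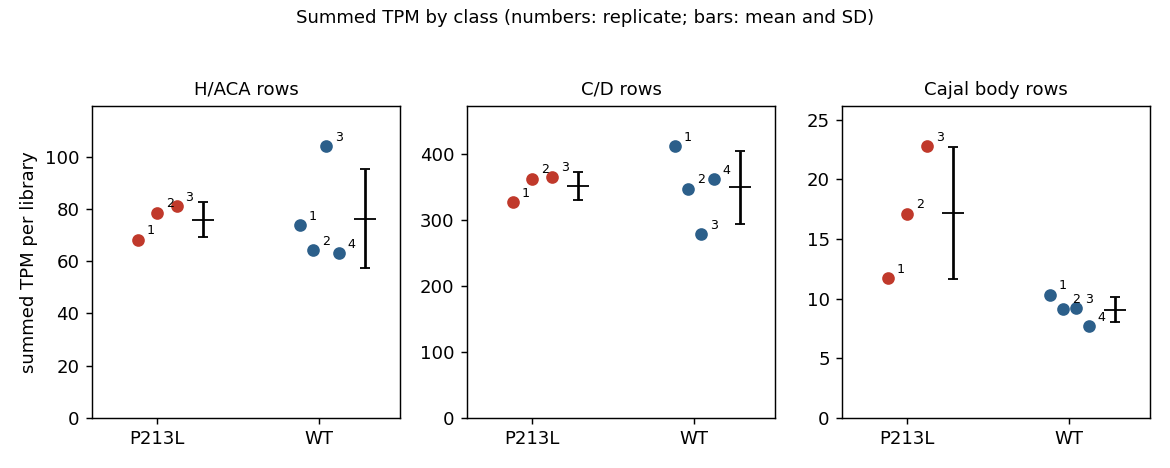
Summed TPM per library of the 12 H/ACA, 29 C/D and 3 Cajal body members, with P213L left and WT right, points numbered by replicate, and the mean with 1 SD beside them. The Cajal body sums are 11.7 to 22.8 TPM in P213L, above the 7.66 to 10.3 TPM of WT, while the other sums overlap.

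The Cajal body rows were the class with the largest share of members higher at an unadjusted p under 0.05. Scarna17 stood at 5.85, 7.13 and 7.88 TPM in P213L, against 3.67, 3.06, 3.48 and 2.56 TPM in WT. The groups did not overlap. The coefficient of variation was 14.8% in P213L and 15.6% in WT, against medians of 34.3% and 59.1% over all members. The log2 fold change was 1.01 ± 0.17 (SE), with an unadjusted limma p of 3.30e-04 and an adjusted p of 0.827, and it was 1.05 without WT replicate 3. In units, Scarna17 had 9, 10.5 and 13 in P213L, against 5.5, 4.5, 5 and 3.5 in WT, and its spread, SE and p-value rest on these few units. The annotation placed no gene around it on the same strand.

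Scarna9, whose human counterpart guides methylation of the U2 small nuclear RNA, stood at 4.40, 7.66 and 12.996 TPM in P213L, against 4.15, 3.45, 5.10 and 2.06 TPM in WT. Its P213L values spread widely, and P213L replicate 1 lay below WT replicate 3, so the groups overlapped. On the log2 scale the change was 1.02 ± 0.38 (SE), with an unadjusted limma p of 0.0287, and 1.17 without WT replicate 3. It was 0.65 without P213L replicate 3 and 1.38 without P213L replicate 1. Scarna6 stood at 1.45, 2.33 and 1.90 TPM in P213L, against 2.49, 2.63, 0.622 and 3.05 TPM in WT, a log2 fold change of -0.06 ± 0.40 (SE). All 3 of its P213L values lay below WT replicates 1, 2 and 4 and above WT replicate 3, and without that WT library the log2 fold change was -0.44, with an unadjusted limma p of 0.0332. Below the level limit, Scarna2 stood at 0.682, 0.518 and 1.56 TPM in P213L, against 0.319, 0.130, 0 and 0.418 TPM in WT. Scarna8 stood at 1.18, 0 and 1.64 TPM in P213L, against 0.806, 0, 0 and 0.880 TPM in WT. Scarna3a stood at 0, 0.766 and 1.03 TPM in P213L, against 0, 0.575, 0 and 0.412 TPM in WT. Scarna8 and Scarna3a overlapped between groups and Scarna2 did not, and Scarna2 and Scarna3a were named after their values were seen.

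Among H/ACA rows, Snora31 had the highest level, with its P213L values inside the WT range. It stood at 27.6, 34.3 and 38.5 TPM in P213L, against 36.9, 26.8, 47.3 and 25.1 TPM in WT, and it held 40.5 to 47.4% of the H/ACA sum in P213L and 39.7 to 49.99% in WT. In limma its log2 fold change was 0.01 ± 0.24 (SE), with an adjusted p of 0.991. Its host is Tpt1, an abundant gene for a translationally controlled protein, with a mean of 755 TPM.

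Snora62 was the H/ACA row with the smallest p-value. It stood at 2.07, 2.34 and 2.25 TPM in P213L, against 0.531, 0.540, 0.184 and 1.74 TPM in WT. The P213L libraries were nearly level (6 to 7 units) and all lay above WT replicate 4, the highest of WT at 4.5 units. The log2 fold change was 1.26 ± 0.37 (SE), with an unadjusted limma p of 0.00985 and an adjusted p of 0.827, and it was 1.02 without WT replicate 3. Its host Rpsa, which encodes a protein of the small ribosomal subunit, had a log2 fold change of -0.08.

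The H/ACA rows next in level varied mostly within WT. Snora57 stood at 13.7, 10.7 and 14.6 TPM in P213L, against 13.9, 8.70, 21.9 and 3.51 TPM in WT, a log2 fold change of 0.36 ± 0.52 (SE). Snora41, in an intron of the elongation factor gene Eef1b2, stood at 5.64, 12.4 and 5.99 TPM in P213L, against 4.998, 5.89, 17.7 and 9.83 TPM in WT, a log2 fold change of -0.17 ± 0.45 (SE). WT replicate 3 was the highest library of both rows and of Snora31, whereas it was the lowest for Snora30, Snora21, Snora62 and Snora47. Snora34, in an intron of Kansl2, stood at 4.28, 3.89 and 4.16 TPM in P213L, against 1.72, 1.75, 2.99 and 5.85 TPM in WT (log2 fold change 0.51 ± 0.36, SE). Its P213L values were close together, above 3 WT libraries and below WT replicate 4.

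Snora78 was the H/ACA row with the largest negative fold change. It stood at 2.41, 0.210 and 2.62 TPM in P213L, against 1.86, 2.31, 4.51 and 4.06 TPM in WT, a log2 fold change of -0.91 ± 0.55 (SE). Without P213L replicate 2 it was -0.22, and without P213L replicate 3 it was -1.29. The value of P213L replicate 2 corresponds to 0.5 unit, and the other P213L values lay within the WT range. Of the remaining H/ACA rows, Snora69 (0.42 ± 0.51), Snora21 (0.29 ± 0.41) and Snora30 (0.21 ± 0.42) had positive log2 fold changes and Snora20 (-0.16 ± 0.38) and Snora23 (-0.04 ± 0.73) negative ones (SE), each smaller than its SE. Snora47, also positive at 0.34 ± 0.76 (SE), was listed at 0 in WT replicate 3 and came to -0.36 without it.

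Among C/D rows, Snord55 and Snord91a together held 48.8 to 56.6% of the class sum in P213L and 47.6 to 55.5% in WT. Snord55 stood at 84.8, 96.1 and 121.5 TPM in P213L, against 132.3, 78.4, 92.9 and 72.6 TPM in WT. All P213L values lay within the WT range, and its log2 fold change was 0.12 ± 0.22 (SE), with a limma adjusted p of 0.869. Snord91a, in an intron of Tsr1, a gene for a ribosome maturation factor, stood at 74.5, 89.7 and 85.2 TPM in P213L, against 89.4, 114.2, 45.5 and 99.2 TPM in WT. Its log2 fold change was 0.01 ± 0.29 (SE), with a limma adjusted p of 0.994, and without WT replicate 3, the lowest library, it was -0.28. The mean of Snord91a was 85.4 TPM, against 31.8 TPM for Tsr1, and it was among 3 members with a higher mean than their host.

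Of the next C/D rows by level, Snord58b was even across libraries and Snord37 was not. Snord58b, in the ribosomal protein gene Rpl17, stood at 16.7, 18.7 and 22.5 TPM in P213L, against 20.8, 17.1, 15.4 and 21.0 TPM in WT (log2 fold change 0.06 ± 0.16, SE). Snord37, in the elongation factor gene Eef2, stood at 22.9, 7.13 and 16.5 TPM in P213L, against 21.0, 15.9, 6.87 and 10.8 TPM in WT (log2 fold change 0.14 ± 0.46, SE). Both overlapped over most of their range, and the host of Snord37 was the most abundant of all hosts, with a mean of 2130 TPM.

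The C/D rows that were higher at an unadjusted p under 0.05 all lay below the class median of 5.75 TPM, and each had a limma adjusted p of 0.827. Snord89 stood at 9.57, 6.10 and 5.44 TPM in P213L, against 1.68, 5.37, 4.25 and 3.41 TPM in WT, and the groups were separated by a small gap between P213L replicate 3 and WT replicate 2. Its log2 fold change was 0.90 ± 0.35 (SE) and 0.99 without WT replicate 3, and its host was the noncoding gene Gm15832. The fold change of Snord89 was 0.62 without WT replicate 1 and 1.10 without WT replicate 2. Snord85 stood at 3.52, 1.10 and 1.97 TPM in P213L. In WT it stood at 0.362 and 0.790 TPM in replicates 1 and 4 and was listed at 0 in replicates 2 and 3. The groups did not overlap, the log2 fold change was 1.79 ± 0.44 (SE) and 1.61 without WT replicate 3, and the values rest on 9.5 units over all P213L libraries and 1.5 over all WT libraries.

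Snord116l12 belongs to the imprinted copies of Snord116, which are expressed from the paternal chromosome, and which are deleted in human Prader-Willi syndrome. It stood at 3.82, 0.856 and 2.80 TPM in P213L, against 0.561, 0.285 and 1.23 TPM in WT replicates 1, 2 and 4 and 0 in WT replicate 3. P213L replicate 2 lay below WT replicate 4, so the groups overlapped. Its log2 fold change was 1.54 ± 0.52 (SE) and 1.25 without WT replicate 3, on 14 units in P213L and 3.5 in WT. Of 17 rows of these copies, 8 had a value above 0 in any library and 1 reached 1 TPM. Another annotated copy is at least 90% identical to Snord116l12, so reads of the copies may have been split, and the host Snhg14 had a log2 fold change of 0.12.

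Snord17, in an intron of the sorting nexin gene Snx5, stood at 1.29, 1.47 and 3.02 TPM in P213L, against 1.89, 0.451 and 0.363 TPM in WT replicates 1, 2 and 4 and 0 in WT replicate 3. WT replicate 1 lay above P213L replicates 1 and 2. The log2 fold change was 1.22 ± 0.51 (SE) and 0.89 without WT replicate 3. Snord8, in an intron of the chromatin remodeller gene Chd8, stood at 3.03, 4.88 and 3.05 TPM in P213L, against 2.88, 0.244, 1.499 and 2.10 TPM in WT. The groups did not overlap, with P213L replicate 1 just above WT replicate 1. The unadjusted limma p was 0.0558 at a log2 fold change of 1.10 ± 0.49 (SE). That fold change was 0.65 without WT replicate 2 and 1.38 without WT replicate 1.

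**Figure D4:**
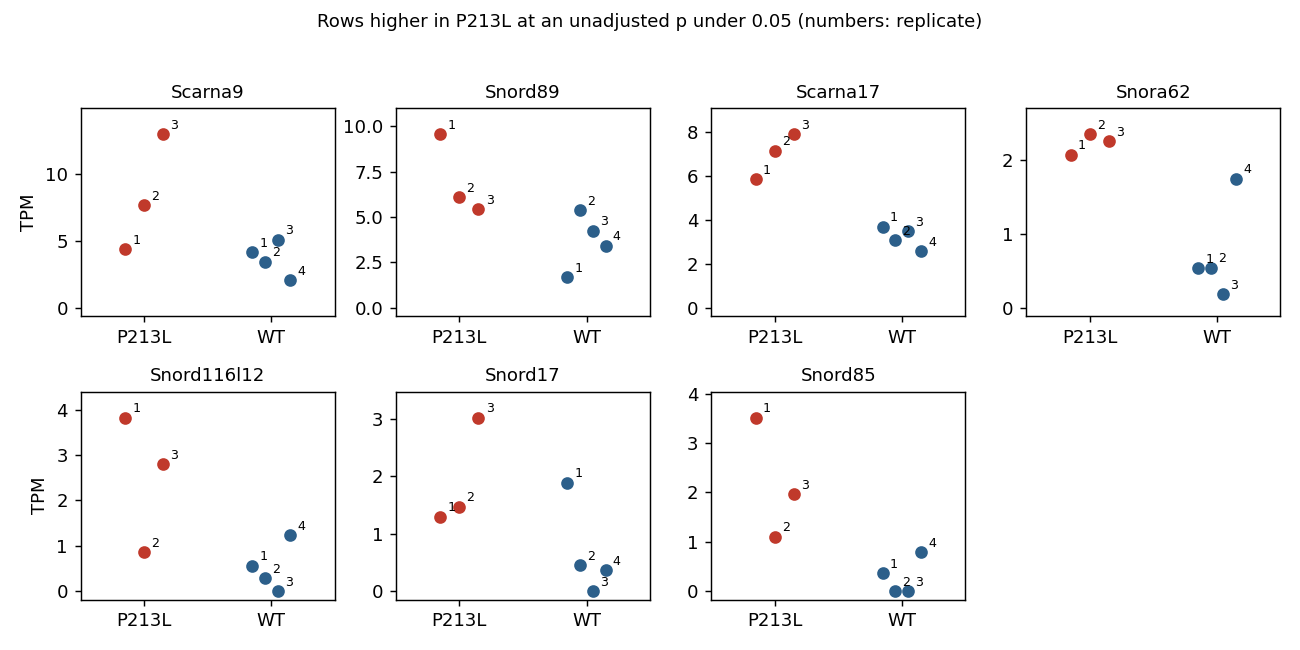
TPM in each library for the 7 members higher in P213L at an unadjusted limma p under 0.05, with P213L left and WT right and points numbered by replicate. The groups are apart for Scarna17, Snord89, Snora62 and Snord85 and overlap for Scarna9, Snord116l12 and Snord17.

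The C/D rows with the largest negative fold changes all had a limma adjusted p of 0.827. Like those of the higher rows, their fold changes moved with the library left out. Snord73a, in the ribosomal protein gene Rps3a1, stood at 0.377, 7.10 and 4.58 TPM in P213L, against 5.82, 4.34, 14.95 and 6.78 TPM in WT (log2 fold change -1.24 ± 0.73, SE). P213L replicate 1 was the lowest library and WT replicate 3 the highest, and the others overlapped. Its log2 fold change was -0.30 without P213L replicate 1 and -0.91 without WT replicate 3. It was -1.86 without P213L replicate 2 and -1.57 without P213L replicate 3. Snord72, in the ribosomal protein gene Rpl37, stood at 5.70, 21.2 and 6.21 TPM in P213L, against 16.3, 12.9, 17.3 and 16.02 TPM in WT (log2 fold change -0.73 ± 0.41, SE). P213L replicates 1 and 3 lay below all WT libraries and P213L replicate 2 above them. Its log2 fold change was -1.31 without P213L replicate 2, -0.41 without P213L replicate 1, -0.47 without P213L replicate 3 and -0.68 without WT replicate 3.

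Snord7 stood at 3.97, 8.85 and 5.68 TPM in P213L, against 5.44, 12.4, 9.91 and 8.32 TPM in WT (log2 fold change -0.53 ± 0.32, SE), and 2 of its P213L values lay within the WT range. It came to -0.27 without P213L replicate 1 and to -0.80 without P213L replicate 2. Snord138 stood at 3.42, 5.36 and 6.78 TPM in P213L, against 6.60, 6.26, 21.1 and 5.77 TPM in WT (log2 fold change -0.70 ± 0.45, SE). WT replicate 3 held the value of 21.1 TPM, and without it the log2 fold change was -0.28. The fold change was -0.46 without P213L replicate 1 and -0.90 without P213L replicate 3. Snord138 and Snord3b-ps2 had no entry in the annotations used here.

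The other 14 C/D rows had mean levels of 1.37 to 11.8 TPM and log2 fold changes of -0.50 to 0.88, with 8 positive and 6 negative. Their lowest unadjusted limma p was 0.256. Without WT replicate 3 the range was -0.56 to 0.31, with 6 positive and 8 negative. Among them, and named after its values were seen, Snord35a was the most even row: it stood at 5.70, 4.77 and 5.85 TPM in P213L, against 4.69, 5.37, 5.80 and 5.45 TPM in WT. Snord71, which gave the value of 0.88, was listed at 0 in WT replicate 3 alone and came to -0.16 without it.

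Just above the level limit lay Snord94 at a mean of 1.05 TPM, Snord85 at 1.11 TPM and Snord110 at 1.13 TPM. Just below it lay Snord66 at 0.913 TPM, Scarna8 at 0.644 TPM and Snora15 at 0.637 TPM. Snord66 stood at 1.71, 1.79 and 0 TPM in P213L, against 1.76, 0, 0.366 and 0.769 TPM in WT. Snord94, the member that reached 1 TPM through WT alone, stood at 1.499, 0.196 and 1.05 TPM in P213L, against 1.16, 1.96, 0 and 1.47 TPM in WT. Snord110, in an intron of Nop56, itself a gene for a core protein of box C/D particles, stood at 2.26, 0.394 and 2.11 TPM in P213L, against 1.16, 1.58, 0 and 0.424 TPM in WT.

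Several snoRNAs that act in the cleavage of precursor ribosomal RNA were not among the members (named after their values were seen). Snord3a, the U3 RNA, was listed at 0 in every library, as were Snora73a, Snora73b and the rows Snord14a, Snord14c, Snord14d and Snord14e. Snord13, not counted among these, was also at 0, whereas Snord3b-ps2, another Snord3 row, was a member at a mean of 4.11 TPM. All 20 rows of the 10 symbols with such a name that occur on more than 1 row of the table were at 0. Of all 297 rows with a repeated symbol, 60.3% were listed at 0 in every library, against 30.9% of the other rows. A 0 in such a row therefore does not show that the RNA was absent. In addition, 7 of the 40 members compared had another annotated row at least 90% identical in sequence (Snord58b, Snord88c, Snord116l12, Snora57, Snora41, Snora30 and Snora21), and the counting of reads that fit several copies is not stated in the labels. Snora57 lies antisense to Lbhd1, Snora78 to Rps2, Snora23 to 1600010M07Rik and Snord8 to Gm26590. Whether the counting used strand is not stated either, so reads of such partners may not have been told apart.

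Host genes of rows that were higher had small fold changes. Of 42 members placed in an annotation, 38 lay inside a gene on the same strand, 37 of them in an intron and 1 (Snord42b in Rpl23a) over an exon. These 38 had 35 distinct hosts, and 13 members lay in 10 genes for ribosomal proteins. Reads over such a row can come from the small RNA or from the unspliced transcript of its host. Which of them gave the reads was not tested, so the values are levels of rows and not of mature RNAs alone. Host fold changes ran from -0.76 to 0.35 on the log2 scale with an SD of 0.21 across the 38 pairs, against 0.66 for the members. The member lay above its host in 22 pairs and below it in 16. Across the pairs, the fold changes of member and host correlated at r = 0.47 (Spearman rho = 0.45). This is a description across genes that share the same 7 libraries, WT replicate 3 among them, and no value without that library is given. Among the hosts of the rows higher at an unadjusted p under 0.05, log2 fold changes were 0.12 for Snhg14, -0.08 for Rpsa, 0.07 for Gm15832, 0.08 for Cep295 (host of Scarna9) and -0.23 for Snx5.

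At the negative end, 2 rows and their noncoding hosts both had negative log2 fold changes. Snora78 (-0.91, and -0.22 without P213L replicate 2) lies in an intron of Snhg9 (-0.76 ± 0.48, SE), and Snord7 (-0.53) in an intron of AA465934 (-0.47 ± 0.13, SE). AA465934 stood at 7.75, 8.91 and 7.68 TPM in P213L, against 13.3, 10.4, 11.4 and 10.9 TPM in WT. The groups did not overlap, and this was the 1 host of 35 with an unadjusted limma p under 0.05, with an adjusted p of 0.827. Of all tested rows, 1.38% were lower at that threshold. Snhg9 stood at 1.92, 2.51 and 3.02 TPM in P213L, against 9.87, 3.38, 6.29 and 1.75 TPM in WT, so the groups overlapped. The 10 ribosomal protein hosts together stood at 5468, 4962 and 4862 TPM in P213L, against 5078, 4930, 8077 and 5065 TPM in WT, with WT replicate 3 above all others. Rows in ribosomal protein genes had a median log2 fold change of 0.06 (8 of 13 positive), and rows in other hosts one of 0.34 (18 of 25 positive). Without WT replicate 3 these medians were 5.79e-05 and 0.04. Rows that share a host, chosen for that after their values were seen, differed in value: in Rpl13a, Snord32a had a log2 fold change of 0.08, Snord34 of 0.48 and Snord35a of 0.03, and in Rpl3, Snord43 had -0.50 and Snord83b -0.17.

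**Figure D5:**
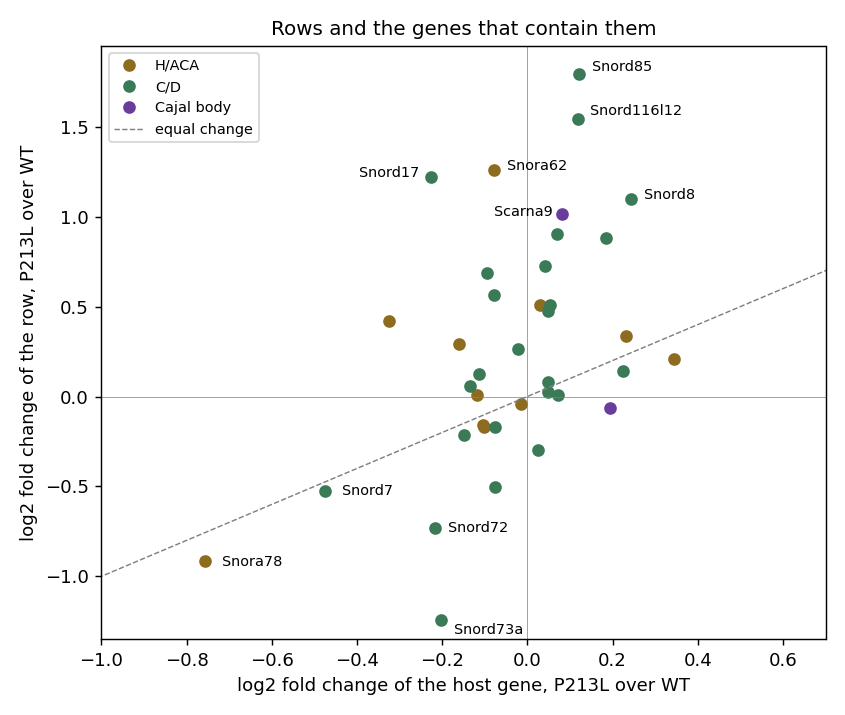
Log2 fold change of each member (vertical) against that of the gene that contains it on the same strand (horizontal), P213L over WT, for 38 members coloured by class, with a dashed line of equal change. Members spread from -1.24 to 1.79, hosts from -0.76 to 0.35, and Snora78 and Snord7 lie near the dashed line.

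Other rows named or annotated as small RNAs were set beside the members. The 98 other tested rows annotated as snoRNA or scaRNA, most of them gene models without a snoRNA symbol, had a median log2 fold change of 0.39 (75 positive), 10 higher and 1 lower at an unadjusted limma p under 0.05. Their sum was 699, 692 and 747 TPM in P213L, against 697, 612, 296 and 690 TPM in WT, with WT replicate 3 far below the rest. Without WT replicate 3 their median was 0.11, with 62 positive. The 197 microRNA rows had a median of 0.65 (148 positive), 27 higher and 4 lower at an unadjusted limma p under 0.05, and a median of 0.22 without that library. Of all tested rows, 2.36% were higher and 1.38% lower at an unadjusted limma p under 0.05, 63.4% were positive, and the median was 0.07. No test of a difference between these groups of rows was made.

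The proteins that build, place and trim these RNAs showed no member past the test. All 4 core proteins of the C/D particle were tested (2 positive, 2 negative). Its methyltransferase Fbl averaged 68.4 ± 7.78 TPM in P213L (SD, n = 3) and 67.7 ± 11.6 TPM in WT (SD, n = 4), a log2 fold change of 0.02 ± 0.15 (SE). Of the 4 H/ACA core proteins, 1 was positive, the pseudouridine synthase Dkc1, which averaged 19.4 ± 1.41 TPM in P213L (SD, n = 3) and 18.1 ± 0.828 TPM in WT (SD, n = 4). None of these 8 genes passed an unadjusted limma p of 0.05.

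Of 10 tested genes of the Cajal body and the SMN complex, 3 had positive fold changes and 7 negative ones. The smallest limma p-values of this list belonged to Gemin5 (log2 fold change 0.41 ± 0.26), Gemin8 (-0.23 ± 0.15) and Strap (-0.17 ± 0.12, SE). Coil, the marker protein of Cajal bodies, averaged 30.8 ± 1.53 TPM in P213L (SD, n = 3) and 27.6 ± 3.43 TPM in WT (SD, n = 4), a log2 fold change of 0.16 ± 0.13 (SE). Wrap53, which carries RNAs to Cajal bodies, had a log2 fold change of 0.06 ± 0.13 (SE). Positive values were found for 7 of 13 particle assembly factors and 8 of 13 genes for trimming, debranching and decay. In each of these lists 0 genes passed an adjusted p of 0.05 and 0 an unadjusted limma p of 0.05.

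Of 19 tested noncoding host genes, 4 had positive fold changes, against 63.4% of all tested rows. Without WT replicate 3, 6 were positive, against 49.6% of all tested rows. Their median log2 fold change was -0.15 with that library and -0.03 without it. With all 7 libraries, 1 was lower at an unadjusted limma p under 0.05, against 1.38% of all tested rows. That gene, Snhg8, stood at 65.8, 60.4 and 53.5 TPM in P213L, against 93.3, 70.5, 129.2 and 75.1 TPM in WT. All P213L values lay below those of WT, and WT replicate 3 was the highest library. Its log2 fold change was -0.58 ± 0.21 (SE), with a limma adjusted p of 0.827.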

How the data were processed

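RNA sequencing libraries of P213L (n = 3) and WT (n = 4) cortex at postnatal day 7 were grouped by their titles. Total RNA was extracted with TRIzol and made, per the labels' protocols, into TruSeq Stranded mRNA libraries. The submitters' processing notes name HISAT2, HTSeq and the build mm10. Tool versions, annotation, gene lengths and the treatment of multiply mapped reads were not given in the sources used here. Per the file headers, the authors deposited TPM values per symbol and library, with 56941 rows and 7 columns, and 0 columns of other samples. TPM divides by gene length, so a short row has a high value per read, and it scales each library to the same total.

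The 17582 rows that reached a mean of 1 TPM were fitted as log2(TPM + 0.5) with limma 3.58.1 in R 4.3.3 with a mean-variance trend. Tests were two-sided, p-values were adjusted by Benjamini-Hochberg over all rows fitted, and the threshold was 0.05. Changes of low rows are understated by the 0.5 added. No count test was run. Positions, hosts, lengths and sequences came from GENCODE vM21, and for Snord73b and Snord94 the length from RefSeq (GRCm38.p6). Identity between rows was computed with edlib 1.3.9.post1, and the fit was tested on simulated data. Units depend on the vM21 lengths and are estimates.

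The members and gene lists were chosen with earlier results of these data known. Named within each class are the 5 rows of highest mean, the 5 with the smallest p among positive and the 4 among negative fold changes, the 3 rows on each side of the level limit, imprinted copies, rows whose groups do not overlap, their hosts, and up to 4 genes of each list, and names added after seeing values are marked as such. Coil, Fbl and Dkc1 are within those lists, and Wrap53 is in its list but not among the 4 smallest p-values. The alternatives tried were a pseudocount of 0.1 or 1, no filter or one at 5 TPM, 3 other scalings, and limma without its trend, in robust form, with sample weights or with a replicate block. Each library was also left out in turn. Some hosts and sequences of named rows are not reported here.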

Additional observations from a re-analysis of the deposited data

Results flagged for a closer look

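Among 48 sets of 4 WT values tested for a value far from the rest (44 members, the sums of the 3 classes and the sum over all), 1 met Dixon's 95% criterion, where chance gives about 1 in 20. Snord138 stood at 21.1 TPM in WT replicate 3, against 5.77 to 6.60 TPM in the other WT libraries. Its P213L values were 3.42, 5.36 and 6.78 TPM. The row has no entry in the annotations used here, and the cause was not tested.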

How the results depend on the processing

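In limma, 0 genes and 0 members passed adjustment under every setting but sample weights (657 genes at an unadjusted p under 0.05 in the fit as reported). Counts of members at an unadjusted p in this section stand without the share of all rows, so no background is set beside them. Sample weights gave WT replicate 3 a weight of 0.0431 and P213L replicate 3 one of 6.90. They called 3981 genes (22.6% of all tested rows) and 16 of the 44 members (10 higher, 6 lower). At an unadjusted p they gave 9 members lower and 4 H/ACA and 8 C/D rows higher, with medians of -0.11 for H/ACA and 1.32 for Cajal body rows. Their log2 fold changes were -0.25 for Snord91a, 0.036 for Snord138, -0.13 for Snora30, -0.083 for Snora34 and -0.29 for Snora21.

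A limit of 5 TPM left 22 members, with 0 H/ACA, 1 C/D and 1 Cajal body row higher and an H/ACA median of 0.0090. Median-of-ratios scaling gave 1 Cajal body row higher and 24 positive members (49.1% of all rows positive), with Snord91a at -0.076, Snord58b at -0.026 and Snora31 at -0.075. Quantile normalization gave 1 Cajal body row higher, 23 positive members (48.6% of all rows), an H/ACA median of 0.089, Snord91a at -0.050, Snord58b at -0.048 and Snora31 at -0.053. A pseudocount of 0.1 gave 0.031 for Snord94 and 0.32 for Snora23. With the replicate block, in which WT replicate 4 has no partner, 2 members were lower and 2 H/ACA rows higher, with Snord94 at 0.027, Scarna6 at 0.11, Snora31 at -0.12, Snora57 at -0.10 and Snora23 at 0.19. Same-numbered libraries deviated together at r = 0.13, 0.17 and -0.10, so the numbers were not taken as pairs.

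Leaving out each library in turn gave 0 to 3 members lower, 1 to 2 H/ACA, 1 to 5 C/D and 1 to 2 Cajal body rows higher, and medians of 0.083 to 0.35 (H/ACA), -0.14 to 0.27 (C/D) and 0.65 to 1.13 (Cajal body, lowest without P213L replicate 3). C/D rows higher numbered 1 without P213L replicate 1 and 2 without P213L replicate 2, P213L replicate 3 or WT replicate 4. Cajal body rows higher numbered 1 without P213L replicates 2 or 3 or WT replicates 2 or 4, and H/ACA rows 2 without WT replicate 4. Members lower numbered 3 without P213L replicate 2, 2 without WT replicates 1 or 3 and 1 without WT replicate 2. Among log2 fold changes that turned, Snord37 ranged from -0.20 to 0.60, Scarna6 from -0.44 to 0.11, Snora41 from -0.51 to 0.17, Snora23 from -0.68 to 0.40, Snord91a from -0.28 to 0.16, Snord94 from -0.63 to 0.31. The others were Snora31 from -0.12 to 0.18, Snora30 from -0.13 to 0.37, Snord55 from -0.019 to 0.30, Snord58b from -0.056 to 0.15, Snora20 from -0.51 to 0.044, Snora57 from -0.10 to 0.72. The causes were not tested, and 14 of 29 named members turned under no setting. A member had an estimated median of 7.5 units per library, and the part of depth in these ranges was not tested.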
